A study of Homo sapiens with 2 samples.

Results

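The 10 genes of the cyclin D, CDK4/6 and RB module were examined in RKO cells treated with an siRNA to HNRNPM (siHNRNPM) and in control RKO cells (siNC). They are the D-type cyclins CCND1, CCND2 and CCND3, the kinases CDK4 and CDK6, the inhibitors CDKN1B (p27) and CDKN2C (p18), and the pocket protein genes RB1, RBL1 (p107) and RBL2 (p130). They were chosen by gene symbol, and all 10 of the 10 symbols were found among the 54261 features of the table. RKO is an established human colorectal carcinoma line, and the labels give the genotype as HNRNPM knockdown for the first library and WT for the second. Each group was 1 RNA-seq library of total RNA, so no difference could be checked against replicates and no p-value was computed. HNRNPM encodes an RNA-binding protein that takes part in pre-mRNA splicing, and the comparison addresses what its knockdown does to the RKO transcriptome. Neither the siRNA sequence nor the interval between transfection and harvest is stated in the labels. The treatment label of the control, called siNC here, reads control RKO cells and names no siRNA.

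In the G1 phase of the cell cycle, growth signals raise the D-type cyclins, which bind and activate CDK4 and CDK6. The active kinases phosphorylate the pocket proteins, which then release E2F transcription factors, and E2F factors switch on the genes of DNA replication. CDKN2C belongs to the INK4 inhibitors, which bind CDK4 and CDK6 alone, whereas CDKN1B binds cyclin-CDK complexes, above all those of CDK2. In colorectal carcinoma the module is a common point of control for WNT and RAS-RAF signalling, and CCND1 is a classical growth-responsive gene in it.

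In genes, 13056118 reads were counted for the siHNRNPM library and 19931360 for the siNC library. HNRNPM itself had 79.6 CPM (reads relative to the scaled library size) in the siHNRNPM library, against 144 CPM in the siNC library. That is 55.2% of the siNC level, with a 95% interval from 51.3% to 59.2%. All intervals here cover the counting error of reads only. Of 10 markers of colorectal epithelium, 4 reached 1 CPM in either library, namely EPCAM, KRT8, KRT18 and CDX2, and no read of KRT20 or CDX1 was found in either. KRT19, VIL1, CDH17 and LGALS4 had at most 2 reads in a library. Over 15 genes, markers of liver summed to 35.3 CPM in the siHNRNPM library, against 1.06 CPM in the siNC library. Most of these reads belonged to SERPINA1 (177 against 6 reads), AFP (174 against 1) and ALB (77 against 0), while APOA1, TTR and FGG had no read in either library. Leukocyte markers summed to 0 and 0.151 CPM, fibroblast markers to 3.51 and 1.56 CPM, and endothelial markers to 0.688 and 0.905 CPM, in the siHNRNPM and siNC libraries in that order. The part of these marker differences in the results below was not tested. In RNA from whole cultures, fewer cells expressing a gene and less of its RNA per cell cannot be told apart.

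Sequence around the heptamer GTGAGAA is shown first because CCND1, the gene with the largest difference, carries it. An earlier search of these same libraries had picked out this heptamer in the 3′ UTRs of genes that were lower in the siHNRNPM library, so its presence here is no independent support. The longest 3′ UTR of each gene in GENCODE 29 was read, sense strand only. The capitals mark the heptamer, and the coordinates are GRCh38, plus strand.
CCND1, chr11:69652858-69652887: tccttttatagGTGAGAAaaaaacaatctg
CCND1, chr11:69653604-69653633: aggccgcgtgcGTGAGAAccgcgccggtgt
RBL2, chr16:53490422-53490451: gggacattttgGTGAGAAatgggacttaac

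The CCND1 copies begin at bases 1587 and 2333 of a 3′ UTR of 3192 bases, and the RBL2 copy begins at base 133 of 1349. The other 8 genes had no copy, including CDK6 with a 3′ UTR of 10219 bases and CCND2 with one of 5341 bases. Over all 9837 searched genes 15.0% held the heptamer. Among 4561 whose 3′ UTR length lay within 2-fold of that of RBL2, 12.1% held it. Among 4133 searched genes whose 3′ UTR length lay within 2-fold of that of CCND1, 22.6% held the heptamer. Those holding it had a median log2 ratio of -0.14 (siHNRNPM over siNC), and those without it -0.04. Because the heptamer was picked from genes lower in these same libraries, neither this difference nor the direction of a gene holding it is independent support. Both genes with a copy were lower in the siHNRNPM library, by very different amounts, and 4 of the genes with no copy were lower as well. A match describes these letters and does not show a site in use.

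In the siHNRNPM library 6 of the genes were lower beyond counting error, CCND1 by far the most, CCND2 and CDKN1B less so, and CDK6, RB1 and RBL2 slightly. The intervals of CCND3, CDK4, CDKN2C and RBL1 spanned no difference. A gene was called at least 2-fold different when its ratio reached 2-fold and the exact 95% counting interval excluded a ratio of 1. By this rule 1 of the 10 was lower, CCND1, against 1.49% of the 12925 genes with 1 CPM or more in either library. None was higher, against 2.45%. At 1.5-fold CCND1 was still the only one lower, against 4.56% of all genes kept. By the interval alone, 6 of 10 were lower, against 26.1% of all genes kept, and 0 of 10 were higher, against 22.0%. All 10 passed the expression filter, and the lowest, CDKN2C, averaged 22.1 CPM. Among the 7673 genes at or above that level, where the intervals are narrower, 32.8% were lower and 24.8% higher. The median log2 ratio of the 10 was -0.16, against -0.01 over all genes kept, whose quartiles were -0.21 and 0.18.

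**Figure D1:**
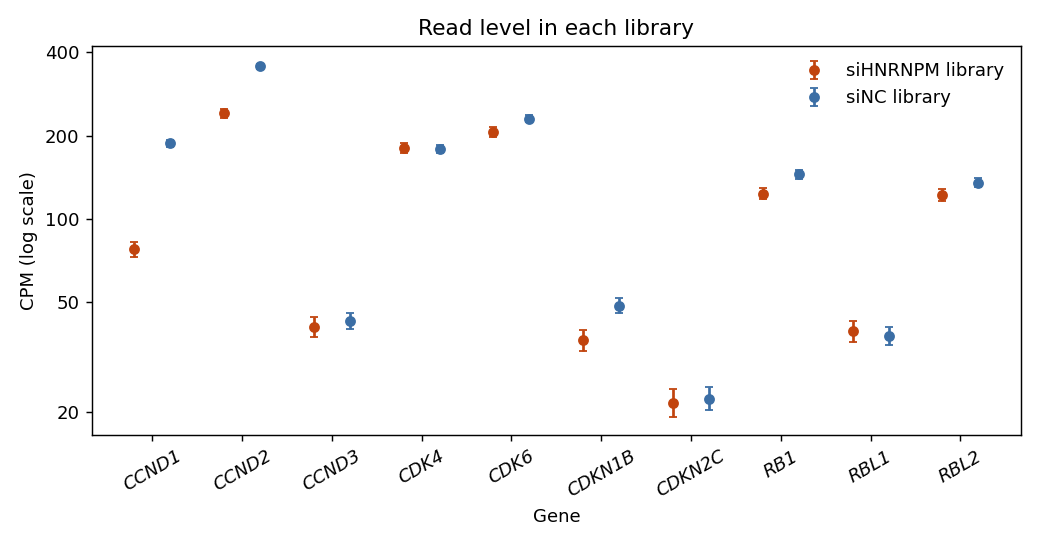
Level of each gene in CPM (log scale) in the siHNRNPM library (left point of each pair) and the siNC library (right point), with 95% Poisson intervals of the read count. The points of CCND1 lie farthest apart, at 77.6 and 187 CPM, and those of CDK4 lie together, at 180 and 178 CPM.

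The D-type cyclins differed from one another. CCND1, which encodes cyclin D1, had 1015 reads or 77.6 CPM in the siHNRNPM library, against 3724 reads or 187 CPM in the siNC library. Its level was 41.4% of that in the siNC library (38.6% to 44.4%), a log2 ratio of -1.27 with an interval from -1.37 to -1.17. The gene lies on chromosome 11 from 69641087 to 69654474, plus strand. CCND2, which encodes cyclin D2, had 3145 reads or 240 CPM in the siHNRNPM library, against 7070 reads or 356 CPM in the siNC library. Its log2 ratio was -0.57 (-0.63 to -0.50), so it was lower in the siHNRNPM library but short of 2-fold. It lies on chromosome 12 from 4273772 to 4305350, plus strand, and its antisense partner CCND2-AS1 had 2 reads in each library. CCND3, which encodes cyclin D3 and lies on chromosome 6 (41934933 to 42050357, minus strand), had 40.7 CPM in the siHNRNPM library, against 42.9 CPM in the siNC library. Its log2 ratio of -0.08 had an interval spanning no difference, from -0.23 to 0.08.

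The step from CCND3 to CCND2 to CCND1 was larger than counting error at each point. The log2 ratio of CCND1 was lower than that of CCND2 (difference -0.71, interval -0.83 to -0.59). That of CCND2 was in turn lower than that of CCND3 (difference -0.49, -0.66 to -0.32). Because each of these differences compares a pair of genes within the same libraries, it does not depend on how the libraries are scaled. Of the 45 pairs among the 10 genes, the interval of 29 excluded no difference, and this held for 9 of the 9 pairs with CCND1. Its smallest difference was the one to CCND2, and the largest was the one to RBL1 (-1.33, -1.52 to -1.13). The same share was not computed over pairs of other genes, so the counts of pairs cannot be called particular to these genes.

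The make-up of the D-type cyclin pool also differed. CCND1 took 21.6% of the D-type cyclin reads in the siHNRNPM library (exact binomial interval 20.5% to 22.8%), against 32.0% in the siNC library (31.1% to 32.8%). CCND2 took 67.0% (65.6% to 68.4%) against 60.7% (59.8% to 61.6%), and CCND3 11.4% (10.5% to 12.3%) against 7.32% (6.86% to 7.81%). CCND2 was thus the most read D-type cyclin in both libraries, and its share was larger in the siHNRNPM library although its level was lower. All D-type cyclin reads together came to 359 CPM in the siHNRNPM library, against 586 CPM in the siNC library, a log2 ratio of -0.71 (-0.76 to -0.66).

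**Figure D2:**
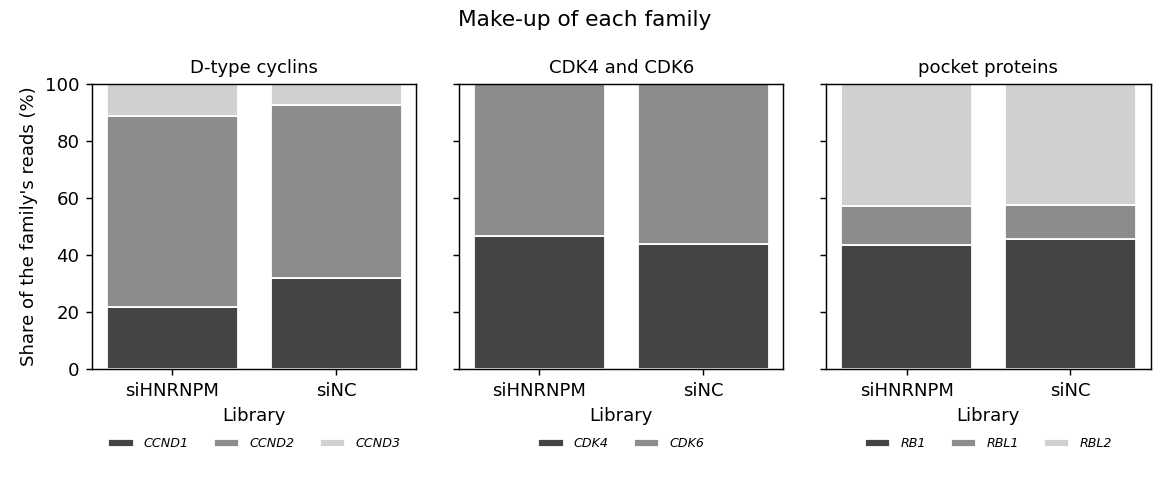
Share of each family's reads (%) taken by each gene, in the siHNRNPM library (left bar) and the siNC library (right bar). CCND1 takes 21.6% and 32.0% of the D-type cyclin reads, while the make-up of the kinase and pocket protein families differs by a few points only.

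The kinase partners differed far less. CDK4, on chromosome 12 (57747727 to 57756013, minus strand), had 2355 reads or 180 CPM in the siHNRNPM library, against 3548 reads or 178 CPM in the siNC library. Its log2 ratio was 0.01 (-0.06 to 0.09), which places its level between 95.7% and 106% of that in the siNC library as far as counting error goes. TSPAN31, on the opposite strand, shares 1369 exon bases with CDK4 and had 345 and 536 reads in the siHNRNPM and siNC libraries, so without known use of strand some CDK4 reads may belong to it. CDK6, on chromosome 7 (92604921 to 92836594, minus strand), had 206 CPM in the siHNRNPM library, against 230 CPM in the siNC library. It was slightly lower, with a log2 ratio of -0.16 (-0.23 to -0.09). The ratios of CDK4 and CDK6 differed by 0.17 (0.07 to 0.28), and CDK6 took 53.4% of the reads of the pair in the siHNRNPM library (52.0% to 54.8%) and 56.3% in the siNC library (55.3% to 57.4%).

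Of the inhibitors, CDKN1B was lower and the interval of CDKN2C spanned no difference. CDKN1B, which encodes p27 and lies on chromosome 12 (12715058 to 12722371, plus strand), had 476 reads or 36.4 CPM in the siHNRNPM library, against 966 reads or 48.6 CPM in the siNC library. Its log2 ratio was -0.42 (-0.58 to -0.26). CDKN2C, which encodes the INK4 protein p18 and lies on chromosome 1 (50960745 to 50974633, plus strand), had 284 reads or 21.7 CPM in the siHNRNPM library, against 446 reads or 22.4 CPM in the siNC library. Its log2 ratio was -0.05 (-0.27 to 0.17), the widest interval of the 10. CDKN1B stood next to CCND2 in the size of its difference, and the interval between the pair did not exclude equal ratios (CCND2 minus CDKN1B -0.15, -0.32 to 0.03).

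Among the pocket protein genes, RB1 and RBL2 were slightly lower, and the interval of RBL1 spanned no difference. RB1, the retinoblastoma gene, on chromosome 13 from 48303726 to 48599436 (plus strand), had 1616 reads or 123 CPM in the siHNRNPM library, against 2878 reads or 145 CPM in the siNC library. Its log2 ratio was -0.23 (-0.32 to -0.14). RBL2, whose product p130 is the pocket protein of resting cells, lies on chromosome 16 from 53433977 to 53491649 (plus strand). It had 122 CPM in the siHNRNPM library, against 135 CPM in the siNC library, a log2 ratio of -0.15 (-0.24 to -0.06). The gene AKTIP shares 610 exon bases with RBL2 on the opposite strand and had 132 and 337 reads in the siHNRNPM and siNC libraries. Relative to library depth AKTIP was thus lower in the siHNRNPM library, the same direction as RBL2. Without known use of strand some RBL2 reads may belong to AKTIP, so the small RBL2 difference is uncertain to that extent. The part of AKTIP reads in it was not tested. RBL1, on chromosome 20 from 36996349 to 37095995 (minus strand), had 514 reads or 39.3 CPM in the siHNRNPM library, against 751 reads or 37.8 CPM in the siNC library. Its log2 ratio was 0.06 (-0.11 to 0.22). The ratio of RB1 was below that of RBL1 (difference -0.29, -0.47 to -0.10), and that of RBL1 above that of RBL2 (0.21, 0.02 to 0.39). RBL1 took 13.8% of the pocket protein reads in the siHNRNPM library (12.7% to 15.0%) and 11.9% in the siNC library (11.1% to 12.7%).

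RBL1 is a classical E2F target gene, and its start region is shown because it was the only one of those searched that held an E2F element. RefSeq promoter windows on GRCh38.p14 ran from 250 bases before to 50 after a gene start. No window was matched for CCND1 and CCND2, so their promoters were not searched. Windows were matched for the other 8 of the 10 genes (14 windows, that of RB1 lying at a start inside the gene). They were searched on both strands for TTTCCCGC, TTTCGCGC, TTTGCCGC and TTTGGCGC, the common forms of the E2F element. Only 1 of the 14 windows held any, that of RBL1, with a pair in tandem that begin 26 and 16 bases before the start. Of all 35116 windows, 3.31% held at least 1 and 0.145% held 2 or more. The capitals mark the pair, on the minus strand.
RBL1, chr20:37095986-37096043: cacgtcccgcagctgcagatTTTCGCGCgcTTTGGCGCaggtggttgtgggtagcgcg

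**Figure D3:**
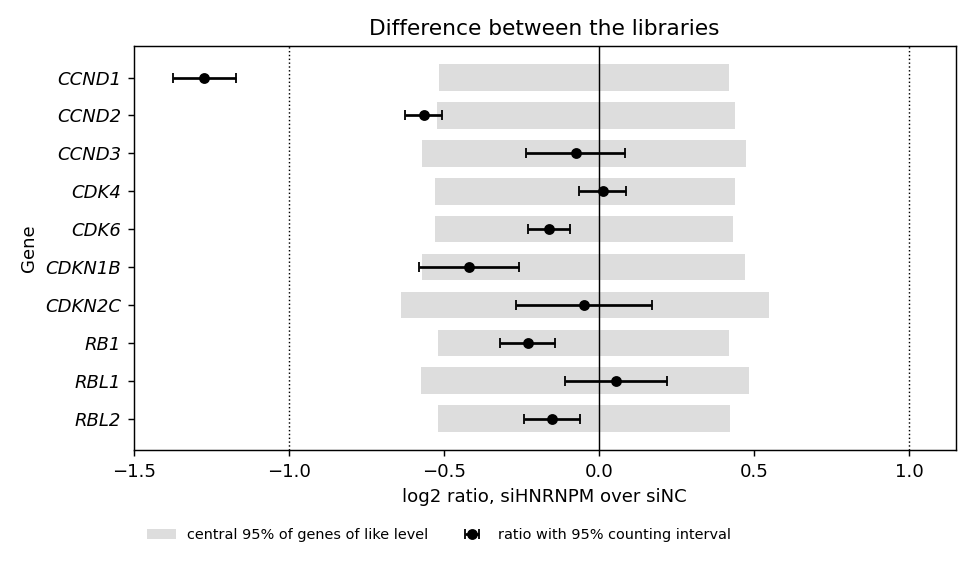
Log2 ratio of each gene, siHNRNPM over siNC, with its 95% counting interval (points and bars). The grey bars give the central 95% of ratios of genes whose mean CPM lay within 2-fold of that gene, and the dotted lines mark 2-fold. CCND1 lies well outside its grey bar at -1.27, CCND2 at its edge at -0.57, and the other 8 inside.

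The spread of ratios among genes of like level gives a yardstick that includes more than counting error, though it is no replicate error. Of the 3213 genes whose mean CPM lay within 2-fold of that of CCND1, the central 95% had log2 ratios from -0.52 to 0.42, and CCND1 had the lowest ratio. CCND2 ranked 26 of 1260 genes, just beyond the central range of -0.52 to 0.44. CDKN1B, at -0.42, ranked 314 of 4817 genes and lay inside the range of -0.57 to 0.47, as did the remaining 7 genes within their own ranges. The differences of CDKN1B, RB1, CDK6 and RBL2 were thus beyond counting error but inside the range of other genes of the same level. Among all 4832 genes with a mean of 50 CPM or more, CCND1 ranked 2 from the lowest. The genes nearest to it in ratio there were KIAA1211 (log2 ratio -1.28, 32.2 against 78.0 CPM in the siHNRNPM and siNC libraries), CSGALNACT2 (-0.93) and EMP1 (-0.92). This likeness rests on 2 libraries and is a match in a single ratio.

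Levels were compared between genes per kb of exon, using the union of GENCODE 29 exons. In the siHNRNPM library CDK4 came first with 56.8 CPM per kb, ahead of CCND2 (33.6) and RB1 (19.1). CDK6 (16.8), RBL2 (16.6) and CCND1 (16.1) followed with overlapping intervals, then CDKN1B (12.9). CCND3 (7.02), RBL1 (6.60) and CDKN2C (6.54) closed the order and also overlapped. In the siNC library CDK4 was likewise first (56.3 CPM per kb), but CCND1 (38.8) was the third, behind CCND2 (49.7) and ahead of RB1 (22.4). CDK6 (18.8), RBL2 (18.5) and CDKN1B (17.3) followed with overlapping neighbours, and CCND3 (7.39), CDKN2C (6.76) and RBL1 (6.34) came last, again overlapping. CCND1 stood below RB1 in the siHNRNPM library and above it in the siNC library, with exon union and with longest transcripts alike, while it came between CCND2 and CCND3 in both libraries. Summed per kb, D-type cyclin RNA was 0.770 times CDK4 and CDK6 RNA in the siHNRNPM library and 1.28 times in the siNC library. CCND1 alone was 0.218 and 0.516 times the kinases. The place of CCND1 beside CDK6 depends on the length used. With longest transcripts CCND1 was at 18.0 CPM per kb and CDK6 at 17.7 in the siHNRNPM library, with overlapping intervals, and at 43.5 and 19.8 in the siNC library. The place of CCND3 also depends on it, since its longest transcript is 2.39 kb against 5.80 kb of exon union. With longest transcripts CCND3 stood at 17.0 CPM per kb in the siHNRNPM library and at 17.9 in the siNC library. In the siHNRNPM library the CCND3 interval (15.6 to 18.5) then overlapped that of CCND1 (16.9 to 19.1), so their order there was not settled.

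**Figure D4:**
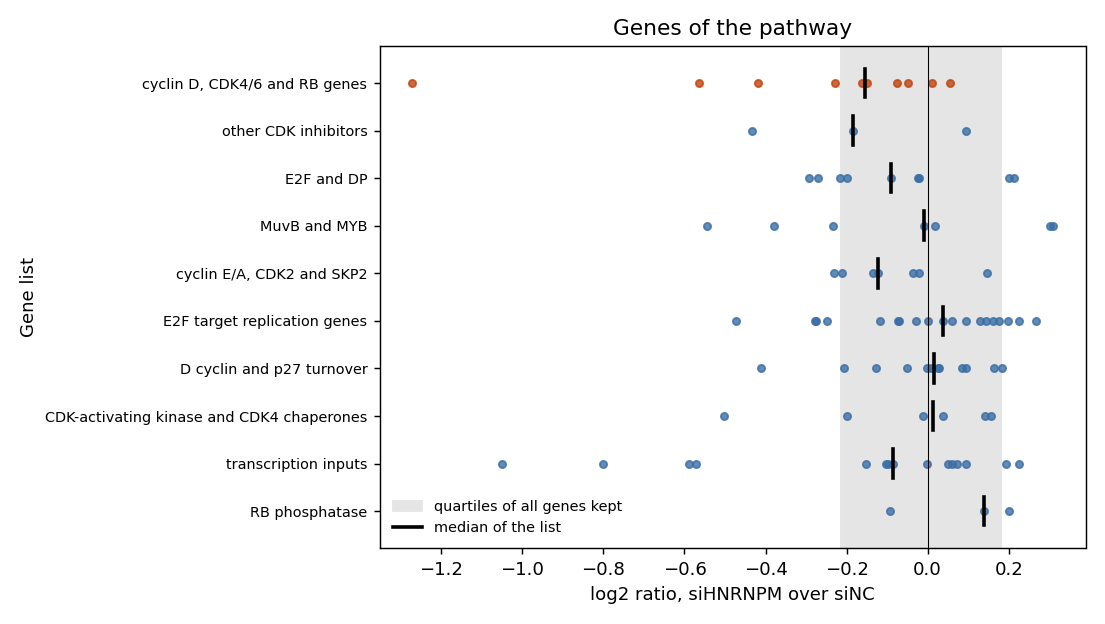
Log2 ratios, siHNRNPM over siNC, of the 10 genes (top row) and of the measured genes of 9 lists from the same pathway, 1 point per gene, with the median of each list as a black bar. The grey band spans the quartiles of all genes kept. The replication genes centre near 0.04 while CCND1 at -1.27 and FOS at -1.05 lie farthest out.

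The genes downstream of the pocket proteins were not shifted together. Of 19 E2F target genes of DNA replication, 8 were higher by the interval (42.1%), 5 were lower (26.3%) and 6 spanned no difference. Among all genes kept, 22.0% were higher and 26.1% lower, and 24.8% and 32.8% of those at or above the level of CDKN2C. The median log2 ratio of the 19 was 0.04, against -0.01 over all genes kept. None reached 2-fold. UHRF1, a maintenance DNA methylation factor, had -0.47 (-0.59 to -0.36), the DNA polymerase alpha gene POLA1 -0.28, the replicative helicase gene MCM7 -0.28, and the thymidine kinase gene TK1 0.27 (0.13 to 0.40). Among E2F and DP genes 1 of 9 measured was higher and 4 were lower (median -0.09). The activator E2F1 had 0.20 (0.06 to 0.34), E2F5 and E2F4, partners of p130 and p107, had -0.29 and -0.22, and TFDP2, encoding a DP subunit, had -0.27. E2F2 had 2 and 9 reads in the siHNRNPM and siNC libraries and did not pass the filter. Of 7 genes of the MuvB core and its MYB partners, 1 was higher and 3 were lower (median -0.01), with MYBL1 at -0.54, LIN52 at -0.38, LIN9 at 0.30 and LIN54 at -0.23.

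Of 7 genes around cyclin E, cyclin A and CDK2, the step that follows cyclin D, 0 were higher, 3 were lower and 4 spanned no difference, with a median log2 ratio of -0.12. Over all genes kept, 22.0% were higher and 26.1% lower, and 24.8% and 32.8% of those at or above the level of CDKN2C. SKP2, the F-box protein that marks p27 for degradation, had -0.23 (-0.35 to -0.11), the cyclin A gene CCNA2 -0.21 and CDK2 -0.13. The intervals of CCNE1 (-0.02), CCNE2 (-0.12), CDC25A (-0.04) and CKS1B (0.15) spanned no difference. With upper-quartile scaling or the siNC library thinned, 1 of the 7 was higher.

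Among the other CDK inhibitors, 1 of the 3 genes that passed the expression filter (of 5 listed) was lower and 0 were higher (median -0.18). Of all genes kept, 26.1% were lower and 22.0% higher. CDKN1A, which encodes p21, had 117 CPM in the siHNRNPM library, against 158 CPM in the siNC library, a log2 ratio of -0.43 (-0.52 to -0.35) close to that of CDKN1B. The INK4 genes CDKN2B (34.1 against 31.9 CPM) and CDKN2D (12.3 against 14.0 CPM) had intervals spanning no difference. CDKN2A had 6 reads in the siHNRNPM library and 4 in the siNC library, and CDKN1C 1 and 0, too few for a comparison. The INK4 genes above 1 CPM were thus CDKN2B, CDKN2C and CDKN2D.

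Genes that control the proteins of the module after transcription had small differences in both directions. Of 12 genes for the turnover of D-type cyclins and p27, 2 were higher (16.7%) and 3 were lower (25%), with a median of 0.02. These shares were near those of all genes kept, 22.0% higher and 26.1% lower. The F-box gene FBXW8 had -0.41 (-0.72 to -0.11), CUL1 -0.21, FBXO31 0.18 and AMBRA1, the substrate receptor for D-type cyclins, 0.16. Of 6 genes of the CDK-activating kinase and the CDK4 chaperones, 3 were higher and 1 was lower (median 0.01), namely HSP90AB1 at 0.16, MNAT1 at 0.14, HSP90AA1 at 0.04 and CCNH at -0.20. Of 3 catalytic subunits of the phosphatase that acts on RB, PPP1CB (0.20) and PPP1CC (0.14) were higher and PPP1CA (-0.09) was lower. The interval of PPP1CA ended just below 0, and none of the 3 was lower under total counts, upper-quartile scaling or the thinned siNC library.

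Transcription factors that feed into the D-type cyclin genes held the other difference past 2-fold. Of 15 measured, 3 were higher and 7 were lower, against 22.0% and 26.1% of all genes kept, with a median of -0.09. These counts depend on the scaling, with 5 higher and 5 lower under upper-quartile scaling, 4 and 6 under total counts, and 3 and 5 with the siNC library thinned. FOS, an AP-1 subunit, was the only one past 2-fold, with 122 reads or 9.32 CPM in the siHNRNPM library against 384 reads or 19.3 CPM in the siNC library, a log2 ratio of -1.05 (-1.36 to -0.75). The others given here were chosen after their values were seen. The AP-1 subunit gene JUN had 507 CPM in the siHNRNPM library against 542 CPM in the siNC library (-0.10). FOSL1, also of AP-1, had 161 against 154 CPM (0.06), with an interval spanning no difference. Both had more reads than FOS and did not share the size of its difference. ETS1 had 388 against 676 CPM (-0.80, -0.85 to -0.75), EGR1 29.3 against 44.1 CPM (-0.59), and FOXO3, a known activator of CDKN1B, 95.7 against 142 CPM (-0.57). MYC had 304 CPM in the siHNRNPM library, against 266 CPM in the siNC library (0.19, 0.13 to 0.25), and CTNNB1, encoding beta-catenin, 358 and 340 CPM (0.07). These genes therefore did not share a direction.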

How the data were processed

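Gene-level values were the whole-number read counts per gene symbol deposited by the authors, with no normalization. HISAT2 2.0.4 and GRCh38 are named, per the submitters' processing notes, with no role stated. Not given in the sources used here were the counter, the annotation, the handling of multi-mapped reads and the use of strand. Libraries were grouped by their treatment labels and tied to columns by title. Counts were scaled by TMM (edgeR 4.0.16, R 4.3.3; factors 1.00 for siHNRNPM and 0.998 for siNC) over the whole table, and genes with 1 CPM or more in either library were kept (12925 of 21623 with a read). Log2 ratios used 0.5 for a count of 0. Their intervals are exact Clopper-Pearson 95% intervals of the split of a gene's reads, intervals between a pair of genes are exact conditional odds ratio intervals (scipy 1.17.1), and levels have Poisson intervals. The intervals cover at most the counting error of reads. PCR duplicates are not independent molecules, so any among the reads would make the intervals too narrow even for that. The procedure was run on simulated Poisson counts, which hold no variation between cultures, so that run bears on counting error only. Positions, exon lengths and 3′ UTRs came from GENCODE 29 on GRCh38, which may differ from the annotation that was counted.

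The genes and lists were chosen with earlier results of these data known. All 10 genes were named. From each list the members past the 2-fold rule were named, or else up to 4 with the largest absolute ratio whose interval excluded a ratio of 1. Any other list gene given was chosen after its values were seen. Alternatives covered 3 other scalings (total counts, upper quartile, DESeq2 1.42.0 size factors), the siNC library thinned to the depth of the other, the expression filter, the fold required and the length used.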

Additional observations from a re-analysis of the deposited data

How the results depend on the processing

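No paired analysis was possible because each group was 1 library and the labels carry no replicate numbers. Of 153 recomputed values, 136 stayed within counting error or within 1.5 times the count. Under each of the 4 alternatives of scaling and thinning, all 10 genes and HNRNPM kept the call of their interval, with CCND1 between -1.29 and -1.24, CCND2 between -0.57 and -0.53, CDKN1B between -0.46 and -0.39 and RB1 between -0.27 and -0.20. The median of the MuvB list took either sign (-0.03 to 0.02), as did that of the other CDK inhibitors, which was 0.10 without an expression filter. Among the pathway lists, the split of higher against lower changed most for the transcription factors (3 to 5 higher, 5 to 7 lower), and the calls in each other list moved by at most 1 in either direction from those reported. The 17 values that moved were shares recomputed per kb, since the genes differ in length. Per kb of exon union, CCND1 made up 28.3% of D-type cyclin RNA in the siHNRNPM library and 40.5% in the siNC library, or 25.0% and 37.4% with longest transcripts. CDK6 made up 22.8% and 25.0% of CDK4 and CDK6 RNA per kb of exon union, or 17.0% and 18.7% with longest transcripts, so CDK6 had more reads but CDK4 more RNA per length. For the pocket proteins, exon union gave RB1 45.2% and 47.5%, RBL1 15.6% and 13.4% and RBL2 39.3% and 39.1%, in the siHNRNPM and siNC libraries in that order. Longest transcripts gave RBL1 12.0% and 10.3%, and RB1 46.9% in the siNC library. The depth of 13056118 and 19931360 reads limits CDKN2C most, and variation between cultures was not measured.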
